A study of Drosophila melanogaster with 15 samples.

Results

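Transcript levels of 8 Drosophila myosin and thick filament genes were followed in larval body wall muscle of 5 genotypes. The genes were taken by their symbols from the 15682 genes in the deposited counts. There are 5 muscle genes, Mhc, Mlc1, Mlc2, Prm and fln, and 3 non-muscle myosin genes, zip, sqh and Mlc-c. Of these, 7 had enough reads to be tested, among 10930 genes tested in all, and fln did not.

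The study asked how the transcription factor Deaf1 and the kinase Gsk3, encoded by sgg, alter gene expression in growing larval muscle. RNA came from filleted larvae, which are mostly body wall muscle with attached epidermis, and was sequenced as 3 libraries per genotype. All 5 genotypes carried the Mef2-Gal4 driver, whose activity is not limited to body wall muscle, since gut muscle and part of the brain express it too. Mef2>Deaf1RNAi expressed a hairpin against Deaf1 and was set against Mef2>whiteRNAi, whose hairpin targets the eye colour gene white. Mef2>Deaf1 (a Deaf1 transgene) and Mef2>Gsk3CA (a constitutively active form of Gsk3) were each set against Mef2>+, in which the driver was crossed to w1118 and no second transgene was present, so these comparisons share their 3 control libraries. Neither the age beyond the larval stage nor the sex of the larvae is stated in the labels.

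Muscle myosin is a hexamer made of a pair of heavy chains and their light chains. Each heavy chain carries an essential and a regulatory light chain. Many such molecules assemble with paramyosin into the thick filament, which slides along actin thin filaments during contraction. In flies a single muscle heavy chain gene, Mhc, gives all muscle isoforms by alternative splicing. Non-muscle myosin II is built to the same plan from the products of other genes. It drives cytokinesis, epithelial tension and cell shape change in most cell types, so its transcripts in a fillet can come from muscle and from every other tissue that remains.

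The libraries held 16186361 to 32756446 counts on genes (median 21438118). Reads assigned to no gene were 5.30 to 6.75% of all in the other 12 libraries and 3.36 to 3.87% in Mef2>+, and the part of this difference in the comparisons with Mef2>+ was not tested. Deaf1 fell to 22.9 ± 1.24 CPM (counts on a gene per 1000000 counts of the library, scaled by TMM factors) in Mef2>Deaf1RNAi, against 41.8 ± 2.69 CPM in Mef2>whiteRNAi (mean ± SD, n = 3 each; adjusted p = 9.03e-04, edgeR's quasi-likelihood test, Benjamini-Hochberg adjusted over all genes tested). It stood at 43.2 ± 3.92 CPM in Mef2>Deaf1 and 34.8 ± 2.73 CPM in Mef2>+ (log2 fold change 0.31, adjusted p = 0.0581, edgeR), which is the direction of its label without passing the test, and close to its level in Mef2>whiteRNAi. The study reports raised Deaf1 mRNA upon Deaf1 overexpression, and raised Gsk3 mRNA upon that of Gsk3. In the counts used here a higher Deaf1 level in Mef2>Deaf1 was not shown, and these libraries are called by their label. The Gsk3 gene sgg stood at 400.3 ± 109 CPM in Mef2>Gsk3CA and 369 ± 99.3 CPM in Mef2>+ (adjusted p = 0.779, edgeR), so these 3 are called the libraries labelled Mef2>Gsk3CA. All 8 genes of a list of muscle markers were detected in every library, while of 3 adult flight muscle markers Act88F and TpnC4 did not exceed 1.09 CPM and salm stood at 15.02 to 27.6 CPM. Mef2>+ replicate 3 and replicate 3 labelled Mef2>Gsk3CA stood apart from the other libraries of their genotypes (Pearson correlations of log2 CPM across genes of 0.931 to 0.945 and 0.916 to 0.943, against 0.992 and 0.990 for the remaining pairs).

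Summed, the 4 tested muscle genes had more counts than the 3 non-muscle genes in every library. They took 0.584 to 4.34% of all counts on genes in a library, and the 3 non-muscle genes 0.102 to 0.237%. Because the genes differ in length, their levels were compared per kilobase of exon, using the exon lengths of the BDGP6 annotation. In Mef2>+ the highest was Mlc2 (FBgn0002773, chromosome arm 3R), the regulatory light chain of muscle myosin, at 5667 ± 1694 CPM per kilobase (mean ± SD, n = 3). Mlc1 (FBgn0002772, 3R), the essential light chain, followed with 2316 ± 566 CPM per kilobase.

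Prm (FBgn0003149, 3L), which encodes paramyosin, the rod protein of the thick filament core, and Mhc (FBgn0264695, 2L) came next in Mef2>+, at 1266 ± 175 and 1241 ± 465 CPM per kilobase. These neighbours overlapped, with Prm at 1140 to 1466 and Mhc at 928 to 1776. The non-muscle essential light chain Mlc-c (FBgn0004687, X) stood at 211 ± 42.9, the non-muscle regulatory light chain sqh (FBgn0003514, X) at 169 ± 44.4, and the non-muscle heavy chain zip (FBgn0287873, 2R) at 133 ± 36.9 CPM per kilobase, each overlapping its neighbour in the order.

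In the libraries labelled Mef2>Gsk3CA the order of the means was the same. In Mef2>Deaf1RNAi Mhc (1317 ± 59.5 CPM per kilobase) lay above Prm (769.6 ± 80.5), and their libraries did not overlap. In Mef2>whiteRNAi Prm (514 ± 221) lay above Mhc (335 ± 226), and the spread was so wide that Mlc2, Mlc1, Prm and Mhc each overlapped the next. In Mef2>Deaf1 Mhc was at 177 ± 64.1 CPM per kilobase, level with zip at 178 ± 27.0 and overlapping sqh at 232 ± 30.7, whereas Prm was at 569 ± 64.1 and Mlc1 at 557 ± 141. With the longest annotated transcript as the length instead of all exons, Mhc lay above zip there (218 and 189.5 CPM per kilobase) and no gene changed rank in the other 4 genotypes.

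**Figure D1:**
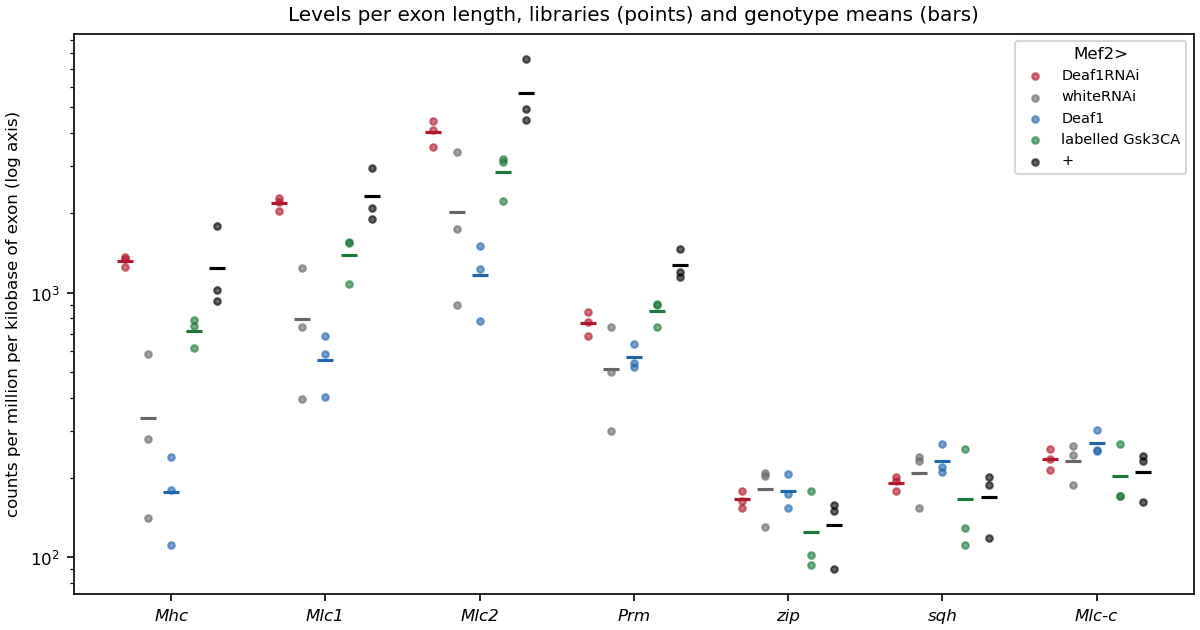
Level of the 7 tested genes in CPM per kilobase of exon (log axis), 3 libraries (points) and their mean (bar) for each of 5 genotypes. Muscle genes range from 112 (Mhc in Mef2>Deaf1) to 7607 (Mlc2 in Mef2>+), and non-muscle genes from 90.6 to 302.

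The remaining member, fln (FBgn0005633, 3L), encodes flightin, a thick filament protein of the adult indirect flight muscle. It had 4, 6 and 5 counts in the Mef2>Deaf1RNAi libraries, 5, 9 and 1 in Mef2>whiteRNAi, 8, 7 and 2 in Mef2>Deaf1, 11, 5 and 4 in those labelled Mef2>Gsk3CA, and 3, 0 and 5 in Mef2>+. These counts are at or near the floor of 3 counts at which a library cannot tell a gene from absence, and no library exceeded 0.378 CPM. In the annotation 61.6% of its exon bases are also covered on the opposite strand by asRNA:CR45161, and the strand setting of the counting is not given in the sources used here, so reads of these genes may not be separated. No other member shares exon sequence with another gene in that annotation.

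Between Mef2>Deaf1RNAi and Mef2>whiteRNAi the muscle myosin chains differed and the non-muscle ones did not pass the test. Mhc and Mlc1 rose 3.93-fold and 2.74-fold with Deaf1 RNAi, and Mlc2 was 2.01-fold higher and Prm, by 0.58 on the log2 scale, higher without passing the test. Thus 2 of 7 genes passed, both higher, against 5.48% of all genes tested that were called higher (8.81% in either direction). The median log2 fold change was 1.23 over the 4 tested muscle genes, −0.12 over the 3 non-muscle genes and −0.05 over all genes tested.

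Mhc stood at 12370, 12090 and 11330 CPM in the Mef2>Deaf1RNAi libraries, against 1271, 2543 and 5285 CPM in Mef2>whiteRNAi. The Deaf1RNAi libraries were close together and all above the controls, which themselves spread over a wide range, with replicate 1 lowest and replicate 3 highest. The log2 fold change was 1.98 (SE 0.45, adjusted p = 0.0199, edgeR's quasi-likelihood test, Benjamini-Hochberg adjusted).

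Mlc1 stood at 3225, 3106 and 2883 CPM in Mef2>Deaf1RNAi, against 559, 1044 and 1755 CPM in Mef2>whiteRNAi, with no overlap (log2 fold change 1.46, SE 0.35, adjusted p = 0.0252, edgeR). Mlc2 stood at 10140, 9410 and 8122 CPM in Mef2>Deaf1RNAi, against 2045, 3964 and 7768 CPM in Mef2>whiteRNAi. Its libraries did not overlap either, but the highest control came close to the lowest Deaf1RNAi library, and the difference did not pass (log2 fold change 1.01, SE 0.41, adjusted p = 0.149, edgeR). Prm, at 4533, 4160 and 3673 CPM in Mef2>Deaf1RNAi and 1607, 2677 and 3968 CPM in Mef2>whiteRNAi, overlapped (0.58 on the log2 scale, SE 0.26, adjusted p = 0.181). Non-overlap of the libraries was met by these 3 muscle genes, all higher, and by 14.9% of all genes in that direction.

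The non-muscle genes overlapped fully between these genotypes. The heavy chain zip stood at 1116, 1186 and 1292 CPM in Mef2>Deaf1RNAi, inside the range of 1510, 1467 and 942 CPM in Mef2>whiteRNAi (change of −0.13 on the log2 scale, SE 0.28, adjusted p = 0.834, edgeR). For sqh the value was −0.12 (SE 0.29) and for Mlc-c 0.02 (SE 0.20), with adjusted p of 0.849 and 0.964.

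The same control library that was lowest for the muscle genes, Mef2>whiteRNAi replicate 1, was the highest of its genotype for zip and sqh and the middle one for Mlc-c, while replicate 3 was highest for the muscle genes and lowest for these 3. Without replicate 3, all 4 muscle genes passed the test (Mhc 2.64, adjusted p = 0.00275, edgeR), while without any single one of the other 5 libraries compared none passed (Mhc adjusted p 0.0543 to 0.0677). Over these 6 fits with a library left out, 294 to 1159 of all genes were called. A fit on only the 6 libraries compared also called none of the 7 genes (adjusted p = 0.07 for Mhc and 0.0806 for Mlc1). Over the 8 alternatives that include this fit and leave out no single library, 599 to 1661 of all genes were called.

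**Figure D2:**
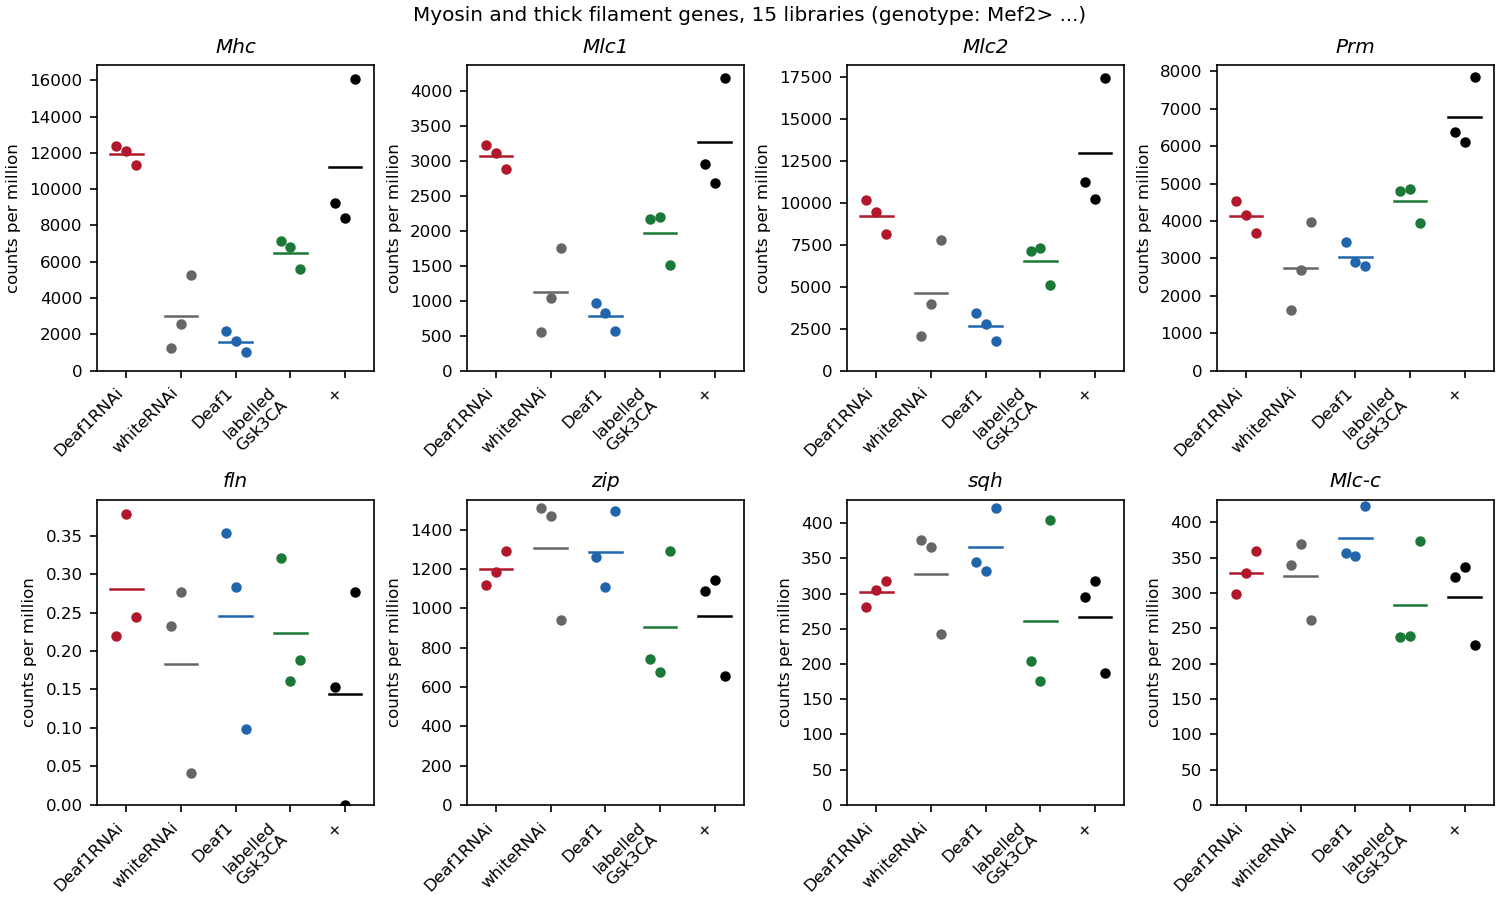
CPM of the 8 genes in each library (points) with the genotype mean (bar), one panel per gene, genotypes from Mef2>Deaf1RNAi to Mef2>+. Mhc is at 11330 to 12370 in Mef2>Deaf1RNAi and 1271 to 5285 in Mef2>whiteRNAi, 1011 to 2171 in Mef2>Deaf1 and 8404 to 16080 in Mef2>+, while zip lies between 656 and 1510 in all 15 libraries.

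The sum of the muscle markers moved with these genes, but single markers did not all do so. Of 8 markers tested, 4 passed as higher and 0 as lower (list median 1.03 on the log2 scale, edgeR), where 5.48% of all genes were called higher. The muscle gene Mef2 overlapped, at 268 to 310 CPM with Deaf1 RNAi, against 195 to 419 CPM for Mef2>whiteRNAi. The 8 muscle markers, all detected, summed to 35020 to 37410 CPM in Mef2>Deaf1RNAi and 12400 to 25410 CPM in Mef2>whiteRNAi. Fat body markers (6 of 6 detected) summed to 2784 to 4850 CPM in Mef2>Deaf1RNAi and 7099 to 10580 CPM in Mef2>whiteRNAi, and midgut markers (5 of 5) to 1.15 to 3.52 CPM in Mef2>Deaf1RNAi and 13.8 to 47.5 CPM in Mef2>whiteRNAi. In bulk RNA of this kind, a smaller share of muscle cells and less myosin RNA per muscle cell cannot be told apart. Mhc relative to the muscle marker sum was 0.324 to 0.331 in Mef2>Deaf1RNAi and 0.103 to 0.208 in Mef2>whiteRNAi, so it was higher against these markers too. Prm relative to the same sum was 0.105 to 0.121 in Mef2>Deaf1RNAi and 0.130 to 0.156 in Mef2>whiteRNAi. Among single genes, 1 of 6 fat body and 1 of 5 midgut markers passed as lower (edgeR), where 3.33% of all genes were called lower. The fat body genes Lsp1beta and Lsp1gamma and the midgut genes alphaTry and Mal-A1 overlapped between these genotypes. The part of the fat body and midgut markers in the result was not tested.

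All 4 tested muscle genes fell in Mef2>Deaf1 relative to Mef2>+, Mhc 7.02-fold, Mlc2 4.86-fold, Mlc1 4.16-fold and Prm 2.22-fold, and none of the 3 non-muscle genes passed the test. Against these 4 of 7 genes, 7.38% of all genes tested were called lower (12.4% in either direction). The median log2 fold change was −2.17 over the muscle genes, 0.42 over the non-muscle genes and −0.02 over all genes.

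Mhc stood at 2171, 1625 and 1011 CPM in the Mef2>Deaf1 libraries, against 9247, 8404 and 16080 CPM in Mef2>+. The log2 fold change was −2.81 (SE 0.46, adjusted p = 0.00266, edgeR's quasi-likelihood test, Benjamini-Hochberg adjusted). On the log2 scale Mhc was at 9.98 to 11.08 in Mef2>Deaf1 and 13.04 to 13.97 in Mef2>+, a gap wider than the spread within either. On the CPM scale the Mef2>+ libraries spread more widely than the gap to the nearest Mef2>Deaf1 library. Mef2>+ replicate 3 lay well above its companions and Mef2>Deaf1 replicate 3 below its own.

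Mlc1 stood at 965, 827 and 571 CPM in Mef2>Deaf1, against 2959, 2681 and 4185 CPM in Mef2>+ (log2 fold change −2.06, SE 0.36, adjusted p = 0.00343, edgeR). Mlc2 stood at 3430, 2793 and 1778 CPM in Mef2>Deaf1, against 11240, 10240 and 17390 CPM in Mef2>+ (−2.28, SE 0.42, adjusted p = 0.00509). Prm stood at 3438, 2913 and 2793 CPM in Mef2>Deaf1, against 6385, 6105 and 7850 CPM in Mef2>+ (−1.15, SE 0.26, adjusted p = 0.0127). Paramyosin had the smallest change of the 4, and its call was lost without Mef2>+ replicate 3, Mef2>Deaf1 replicate 2 or Mef2>Deaf1 replicate 3 (adjusted p 0.0513, 0.0504 and 0.0612), while the calls of Mhc, Mlc1 and Mlc2 held whichever of the 6 libraries was left out.

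The non-muscle chains did not fall with the muscle chains. For sqh the libraries did not overlap, at 345, 331 and 421 CPM in Mef2>Deaf1 and 295, 318 and 187 CPM in Mef2>+, and likewise for Mlc-c, at 357, 353 and 422 CPM in Mef2>Deaf1 and 322, 336.5 and 226 CPM in Mef2>+. Neither passed the test (log2 fold change 0.46, SE 0.29, adjusted p = 0.365 for sqh, and 0.36, SE 0.20, adjusted p = 0.302 for Mlc-c, edgeR). For zip the change was 0.42 (SE 0.28, adjusted p = 0.375) with overlapping libraries. Non-overlap was met by 15.8% of all genes in the higher direction and 17.4% in the lower. Scaling to total counts moved the median of all genes in this comparison by 0.17, and there Mlc-c passed as higher (0.53, adjusted p = 0.0456).

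Muscle markers summed to 16330 to 20050 CPM in Mef2>Deaf1 and 37320 to 49490 CPM in Mef2>+ (8 of 8 detected). Mhc over that sum was 0.0619 to 0.108 in Mef2>Deaf1 and 0.225 to 0.325 in Mef2>+, whereas Prm over it was 0.168 to 0.172 in Mef2>Deaf1 and 0.159 to 0.164 in Mef2>+. Mhc was thus lower relative to the muscle markers too, and Prm slightly higher. Glial markers (4 of 4 detected) summed to 448 to 552 CPM for Mef2>Deaf1, against 253 to 282 CPM for Mef2>+. Tracheal markers (4 of 4) summed to 434 to 553 CPM for Mef2>Deaf1, against 973 to 1938 CPM for Mef2>+. Epidermal and cuticle markers (8 of 8) summed to 84800 to 112800 CPM for Mef2>Deaf1, against 117100 to 133200 CPM for Mef2>+. Not all genes followed their sum (Mef2>Deaf1 given first). Gs2 held most of the glial sum (366 to 468, 175 to 213 CPM), and repo, moody and nrv2 overlapped. Of the glial genes 0 of 4 passed (edgeR), against 12.4% of all genes. The tracheal genes verm (197 to 254, 517 to 1033 CPM) and serp (205 to 269, 431 to 880 CPM) were lower. Tracheal btl was higher (10.85 to 12.43, 8.42 to 10.84 CPM), and trh overlapped (14.69 to 19.17, 14.1 to 16.06 CPM). The cuticle gene Lcp3 was lower (5435 to 9681, 42830 to 53400 CPM) and Lcp4 higher (35460 to 50920, 28730 to 32310 CPM). The part of these non-muscle lists in the result was not tested.

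The 4 tested muscle genes lay below every Mef2>+ library in all libraries labelled Mef2>Gsk3CA, without passing the test. None of the 7 genes passed at an adjusted p of 0.05 (edgeR's quasi-likelihood test), none did with DESeq2 or limma voom, and 2 (Mlc2 and Prm, both lower) had an unadjusted p under 0.05, as had 34.8% of all genes. Among all genes tested, 14.1% were called in this comparison, and 19.8% were not overlapping and lower, as were these 4. The median log2 fold change was −0.76 over the muscle genes, −0.06 over the non-muscle genes and −0.04 over all genes.

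Mhc stood at 7127, 6793 and 5608 CPM in the libraries labelled Mef2>Gsk3CA, against 9247, 8404 and 16080 CPM in Mef2>+ (log2 fold change −0.79, SE 0.44, adjusted p = 0.223, edgeR). Mlc1 stood at 2174, 2202 and 1517 CPM in the libraries labelled Mef2>Gsk3CA, against 2959, 2681 and 4185 CPM in Mef2>+ (−0.74, SE 0.34, adjusted p = 0.149). The highest libraries labelled Mef2>Gsk3CA lay close under the lower controls for both genes, and the difference leaned on Mef2>+ replicate 3, since without it the value for Mhc was −0.47 (adjusted p = 0.511).

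Mlc2 stood at 7110, 7306 and 5078 CPM in the libraries labelled Mef2>Gsk3CA, against 11240, 10240 and 17390 CPM in Mef2>+ (−0.995, SE 0.41, adjusted p = 0.107, edgeR). Prm stood at 4810, 4862 and 3955 CPM in the libraries labelled Mef2>Gsk3CA, against 6385, 6105 and 7850 CPM in Mef2>+ (−0.58, SE 0.26, adjusted p = 0.129). Here the gap to the controls was wider, and Mlc2 had the largest fitted change of the 4.

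Replicate 3 labelled Mef2>Gsk3CA was lowest for all 4 muscle genes and highest for the 3 non-muscle genes. For zip the libraries labelled Mef2>Gsk3CA stood at 741, 677 and 1289 CPM, against 1087, 1145 and 656 CPM in Mef2>+, so that 1 library in each genotype ran against the other 2. The log2 fold changes of zip, sqh and Mlc-c were −0.09, −0.03 and −0.06 (SE 0.28, 0.29 and 0.20), and their signs turned with scaling to total counts, to 0.14, 0.19 and 0.18, where the median of all genes moved by 0.25.

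Muscle markers summed to 26030 to 32540 CPM in the libraries labelled Mef2>Gsk3CA and 37320 to 49490 CPM in Mef2>+. Mhc over that sum was 0.210 to 0.219, just under the 0.225 to 0.325 of Mef2>+. Epidermal and cuticle markers (8 listed, 6 tested) were at 42210 to 61510 CPM in the libraries labelled Mef2>Gsk3CA and 117100 to 133200 CPM in Mef2>+, and tracheal markers (4 of 4 detected) at 357 to 729 CPM in the libraries labelled Mef2>Gsk3CA and 973 to 1938 CPM in Mef2>+. Midgut markers (5 of 5) were at no more than 5.13 CPM in the libraries labelled Mef2>Gsk3CA and 19.6 to 64.2 CPM in Mef2>+, and testis markers (6 listed, 5 tested) at 9.36 to 57.4 CPM in the libraries labelled Mef2>Gsk3CA and 2.40 to 9.41 CPM in Mef2>+. Single genes did not all follow their sum (libraries labelled Mef2>Gsk3CA first). The midgut gene gammaTry was lower (0.117 to 0.141, 12.7 to 45.8 CPM), while Jon99Ciii (0.351 to 0.846, 0.166 to 0.460 CPM) and Mal-A1 overlapped. Epidermal vvl and grh, tracheal btl and the testis genes can and mia overlapped too. Of these lists, 2 of 6 epidermal, 0 of 4 tracheal, 1 of 5 midgut and 0 of 5 testis genes passed (edgeR), against 14.1% of all genes. The part of these non-muscle lists was not tested.

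The controls themselves differed in the muscle genes. All 4 fell in Mef2>whiteRNAi relative to Mef2>+, with log2 fold changes of −1.89 for Mhc (SE 0.45, adjusted p = 0.0144, edgeR's quasi-likelihood test), −1.55 for Mlc1 (SE 0.35, adjusted p = 0.0119), −1.496 for Mlc2 (SE 0.41, adjusted p = 0.0287) and −1.30 for Prm (SE 0.26, adjusted p = 0.00643), against 10.2% of all genes that were called lower (16.5% either way). No library of Mef2>whiteRNAi reached any of Mef2>+ for these 4 genes, a non-overlap in that direction met by 18.5% of all genes. The non-muscle genes did not pass, with log2 fold changes of 0.44 for zip, 0.30 for sqh and 0.13 for Mlc-c. In a fit on the 6 control libraries alone the sizes were the same but none of the 4 passed (adjusted p 0.0727 to 0.122), while 665 of all genes did. The call of Mlc2 was lost without any of 4 of these libraries (Mef2>+ replicates 1 and 3, Mef2>whiteRNAi replicates 1 and 2), and that of Mhc without Mef2>+ replicate 3 or Mef2>whiteRNAi replicate 2. Muscle markers summed to 12400 to 25410 CPM in Mef2>whiteRNAi and 37320 to 49490 CPM in Mef2>+, fat body markers (6 of 6 detected) to 7099 to 10580 CPM in Mef2>whiteRNAi and 2516 to 6875 CPM in Mef2>+, and epidermal and cuticle markers (8 listed, 6 tested) to 45540 to 98290 CPM in Mef2>whiteRNAi and 117100 to 133200 CPM in Mef2>+. Hemocyte markers (5 of 5 detected) were at 587 to 919 CPM in Mef2>whiteRNAi and 978 to 1346 CPM in Mef2>+, tracheal markers (4 of 4) at 313 to 728 CPM in Mef2>whiteRNAi and 973 to 1938 CPM in Mef2>+, and glial markers (4 of 4) at 462 to 814 CPM in Mef2>whiteRNAi and 253 to 282 CPM in Mef2>+. Not all genes followed their sum. Gs2 held most of the glial sum (385 to 748 CPM in Mef2>whiteRNAi and 175 to 213 CPM in Mef2>+). The tracheal gene trh was higher in Mef2>whiteRNAi (16.21 to 21.9 and 14.1 to 16.06 CPM). The hemocyte gene srp overlapped (44.04 to 61.85 and 32.45 to 44.52 CPM). The part of these non-muscle lists was not tested.

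**Figure D3:**
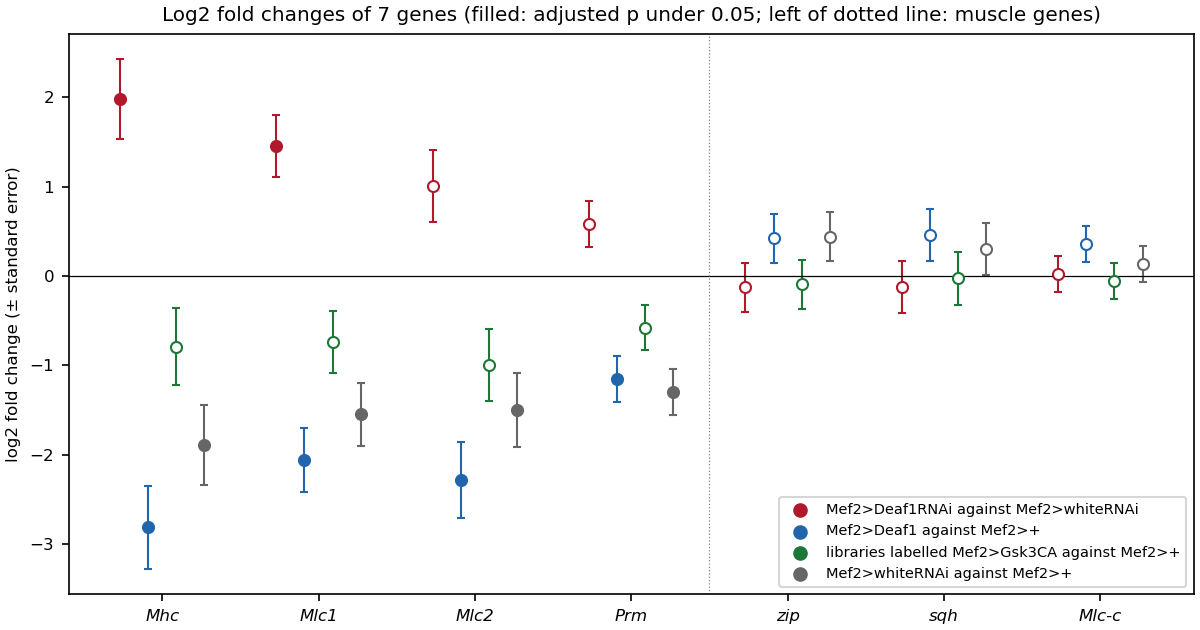
Log2 fold change (± SE, edgeR) of the 7 tested genes in 4 comparisons; filled points passed an adjusted p of 0.05. The 4 muscle genes lie above 0 in Mef2>Deaf1RNAi against Mef2>whiteRNAi and below 0 in the other 3 comparisons, and the 3 non-muscle genes lie between −0.13 and 0.46 with none passing.

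The Deaf1 comparisons depended on which control was used. With the controls exchanged, Mhc in Mef2>Deaf1RNAi differed from Mef2>+ by log2 0.09 (SE 0.43, adjusted p = 0.918, edgeR), and Prm by −0.72 (SE 0.26, adjusted p = 0.108). None of the 7 genes passed with edgeR, DESeq2 or limma voom, 1 (Prm, lower) had an unadjusted p under 0.05, against 25.8% of all genes, and 8.32% of all genes were called. In Mef2>Deaf1 against Mef2>whiteRNAi, Mhc was at −0.92 (adjusted p = 0.264) and Prm at 0.15 (adjusted p = 0.781). Again none of 7 passed with any of these tools, none had an unadjusted p under 0.05, against 20.2% of all genes, and 6.56% of all genes were called. Against Mef2>whiteRNAi, the libraries labelled Mef2>Gsk3CA had higher rather than lower muscle genes (Mhc 1.10, adjusted p = 0.074), of which Prm passed (0.72, adjusted p = 0.0475, where 32% of all genes were called).

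The Deaf1 comparisons have no library in common, and the difference between their effects was tested directly. Mef2>Deaf1RNAi and Mef2>Deaf1, each against its own control, differed by log2 4.79 for Mhc (SE 0.64, adjusted p = 4.29e-04, edgeR's quasi-likelihood test), 3.51 for Mlc1 (SE 0.50, adjusted p = 6.23e-04), 3.29 for Mlc2 (SE 0.59, adjusted p = 0.00265) and 1.74 for Prm (SE 0.36, adjusted p = 0.00662). These 4 of 7 passed, all positive, against 9.42% of all genes in that direction (16.2% in either), and they passed whichever of the 12 libraries was left out. The values for zip, sqh and Mlc-c were −0.55, −0.58 and −0.33 (adjusted p 0.39, 0.39 and 0.489), and with scaling to total counts, which moved the median of all genes by −0.36, Mlc-c passed (−0.70, adjusted p = 0.041) and zip and sqh did not (adjusted p 0.0544 and 0.0585). In the same test 6 of 8 muscle markers were higher (median 2.22), as were 6 of 6 salivary gland markers (median 7.45), and 2 of 6 fat body markers were lower (median −1.63). The salivary gland markers summed to 9.16 to 1341 CPM in Mef2>Deaf1RNAi and 19.4 to 76.2 CPM in Mef2>whiteRNAi, and to 1.28 to 15.3 CPM in Mef2>Deaf1 and 11.5 to 114 CPM in Mef2>+, overlapping in each pair. The part of these lists in the result was not tested.

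This difference contains the gap between the controls. Setting Mef2>Deaf1RNAi directly against Mef2>Deaf1, a comparison chosen after the values were seen, gave log2 2.90 for Mhc (SE 0.46, adjusted p = 0.00149, edgeR), 1.96 for Mlc1 (SE 0.36, adjusted p = 0.00323) and 1.79 for Mlc2 (SE 0.42, adjusted p = 0.0146), which passed together with 12.2% of all genes. Prm did not (0.44, adjusted p = 0.315), nor did zip (−0.10), sqh (−0.28) or Mlc-c (−0.20).

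A ratio of a muscle chain to its non-muscle counterpart within a library does not depend on how libraries are scaled. Mhc per kilobase was 8.87, 8.15 and 7.01 times zip in the Mef2>Deaf1RNAi libraries, against 0.673, 1.39 and 4.49 times in Mef2>whiteRNAi. It was 1.38, 1.17 and 0.541 times zip in Mef2>Deaf1, against 6.80, 5.87 and 19.6 times in Mef2>+. The ratio was above 5 in every Mef2>Deaf1RNAi and Mef2>+ library, and in Mef2>Deaf1 muscle and non-muscle heavy chain transcripts were of the same order.

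The Mhc to zip ratio was 4.95-fold higher with Deaf1 RNAi and 9.64-fold lower in Mef2>Deaf1, and 5.72-fold lower in Mef2>whiteRNAi than in Mef2>+. Each of these had p = 0.1 in the two-sided exact permutation test over libraries, the smallest value that 3 against 3 libraries allow (0.15 after Benjamini-Hochberg adjustment over 12 ratio tests). In the libraries labelled Mef2>Gsk3CA the ratio was 7.69, 8.02 and 3.48, overlapping the 6.80, 5.87 and 19.6 of Mef2>+ (exact permutation p = 0.6). Thus non-overlap of Mhc itself in that comparison was not carried over to its ratio with zip.

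The essential light chains followed the heavy chains. Mlc1 to Mlc-c, the essential chains, had a mean ratio of 9.33 ± 1.39 in Mef2>Deaf1RNAi and 3.69 ± 2.63 in Mef2>whiteRNAi, and of 2.11 ± 0.692 in Mef2>Deaf1, 7.40 ± 2.93 in the libraries labelled Mef2>Gsk3CA and 11.8 ± 5.71 in Mef2>+ (mean ± SD, n = 3 each). The libraries of the genotypes compared did not overlap for either Deaf1 comparison (exact permutation p = 0.1 each) and overlapped for the libraries labelled Mef2>Gsk3CA (exact permutation p = 0.5).

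Mlc2 to sqh, the regulatory chains, stood at 17.6 to 24.9 in Mef2>Deaf1RNAi, overlapping the 3.75 to 22.0 of Mef2>whiteRNAi (exact permutation p = 0.3). It stood at 2.91 to 6.86 in Mef2>Deaf1 and 8.68 to 28.6 in the libraries labelled Mef2>Gsk3CA, against 22.2 to 64.3 in Mef2>+. Of these, Mef2>Deaf1 did not overlap Mef2>+ (exact permutation p = 0.1), and the libraries labelled Mef2>Gsk3CA did (exact permutation p = 0.5). The regulatory chain ratio in Mef2>whiteRNAi replicate 3 thus reached that of Deaf1 RNAi, which the other ratios did not.

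**Figure D4:**
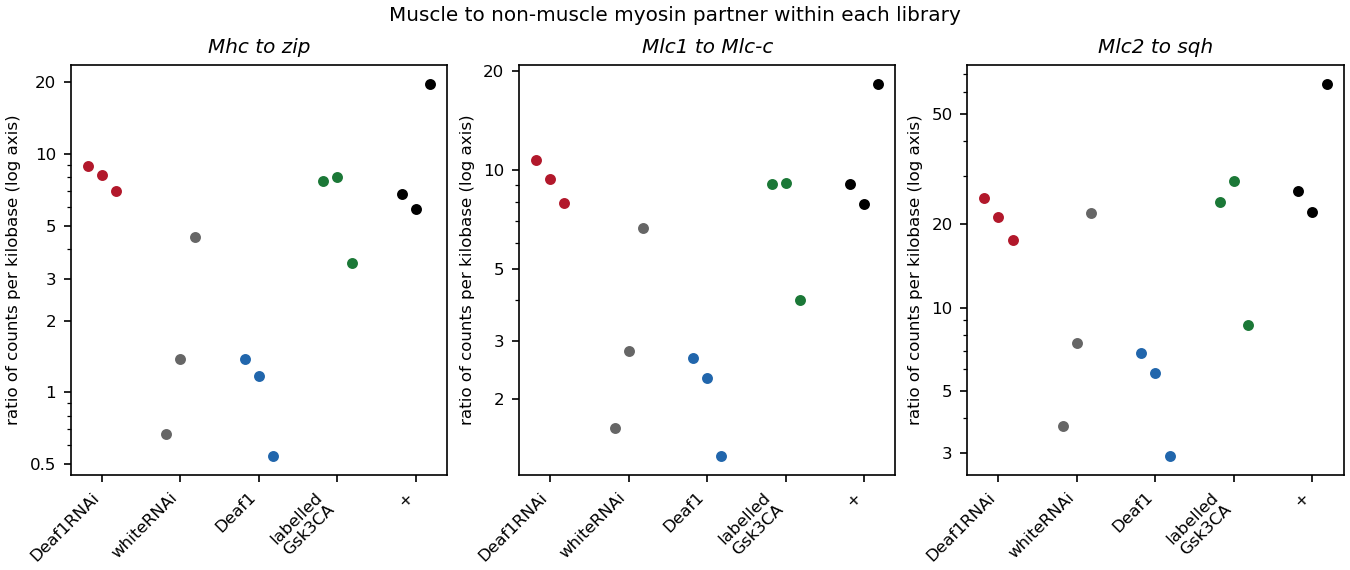
Ratio of counts per kilobase of each muscle myosin gene to its non-muscle counterpart within each library (log axis), 3 libraries per genotype. The Mhc to zip ratio is 0.541 to 1.38 in Mef2>Deaf1 and 5.87 to 19.6 in Mef2>+, and 7.01 to 8.87 in Mef2>Deaf1RNAi against 0.673 to 4.49 in Mef2>whiteRNAi.

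The 4 muscle genes did not move in fixed proportion to each other. Relative to Mhc, and again per kilobase within each library, Prm was at 0.583 ± 0.0356 in Mef2>Deaf1RNAi and 1.73 ± 0.437 in Mef2>whiteRNAi, and at 3.46 ± 1.06 in Mef2>Deaf1, 1.18 ± 0.0358 in the libraries labelled Mef2>Gsk3CA and 1.07 ± 0.217 in Mef2>+ (mean ± SD, n = 3 each). The Mef2>Deaf1RNAi libraries (0.548 to 0.6195) lay below all others and the Mef2>Deaf1 libraries (2.68 to 4.67) above all others. This ratio and those that follow were chosen after the values were seen and are given as descriptions.

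The light chains relative to Mhc were likewise lowest in Mef2>Deaf1RNAi and highest in Mef2>Deaf1 by their means, over a smaller span. Mlc1 to Mhc ranged from 1.63 to 1.67 in Mef2>Deaf1RNAi and 2.13 to 2.82 in Mef2>whiteRNAi, and from 2.85 to 3.62 in Mef2>Deaf1 and 1.67 to 2.05 in Mef2>+. Mlc2 to Mhc was tight within each genotype (highest over lowest library 1.09 to 1.19), with means of 3.06 in Mef2>Deaf1RNAi and 6.13 in Mef2>whiteRNAi, and of 6.68 in Mef2>Deaf1, 3.93 in the libraries labelled Mef2>Gsk3CA and 4.64 in Mef2>+. In Mef2>whiteRNAi, Mhc itself spanned 1271 to 5285 CPM while the Mlc2 to Mhc ratio stayed between 5.82 and 6.38.

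The non-muscle chains varied less in proportion to each other. The ratio of sqh to zip had genotype means from 1.16 to 1.31, and Mlc-c to zip from 1.30 to 1.66. Both were lower in Mef2>whiteRNAi than in Mef2>+ without overlap of the libraries (1.10-fold for sqh to zip and 1.24-fold for Mlc-c to zip), and overlapped in the other 3 comparisons. Even where zip ranged from 677 to 1289 CPM, in the libraries labelled Mef2>Gsk3CA, sqh to zip stayed between 1.19 and 1.44.

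**Figure D5:**
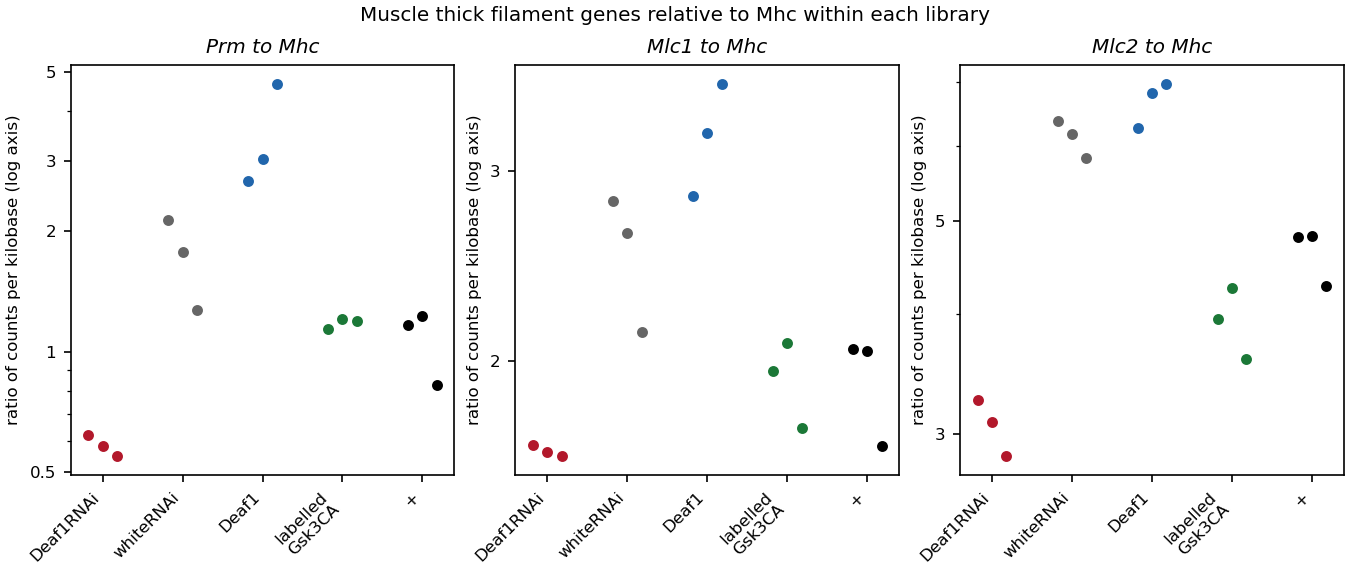
Ratio of counts per kilobase of Prm, Mlc1 and Mlc2 to Mhc within each library (log axis), 3 libraries per genotype. Prm to Mhc is 0.548 to 0.6195 in Mef2>Deaf1RNAi against 1.27 to 2.14 in Mef2>whiteRNAi, and 2.68 to 4.67 in Mef2>Deaf1 against 0.825 to 1.23 in Mef2>+.

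Over the 15 libraries, the Pearson correlation of log2 CPM was 0.992 between Mhc and Mlc1, 0.969 between Mhc and Mlc2, and 0.816 between Mhc and Prm. Among the non-muscle genes it was 0.966 between zip and sqh and 0.938 between zip and Mlc-c, and between Mhc and zip it was −0.553. Taken as deviations from the genotype means, so that genotype no longer contributes, it was 0.988 for Mhc and Mlc2, 0.984 for zip and sqh and −0.723 for Mhc and zip. A library with more muscle myosin than its companions tended to have less non-muscle myosin. The points share libraries and their scaling, and the coefficients are given as descriptions only.

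Among 3618 well-expressed genes, those whose pattern over the 15 libraries was most like that of Mhc were Actn (Pearson r of log2 CPM 0.988), which encodes the Z-disc actin crosslinker alpha-actinin, l(1)G0156 (0.983), CG9090 (0.980), Strn-Mlck (0.980), a titin-family kinase gene, and CG9297 (0.979). The current symbols of l(1)G0156 and CG9090 are Idh3a, a subunit of mitochondrial isocitrate dehydrogenase, and Mpcp1, a mitochondrial phosphate carrier. The genes most like zip were Cortactin (0.986), an actin-binding protein, mop (0.986), raps (0.986), mdy (0.984) and CG6707 (0.983). Spearman's rho was 0.946 to 0.986 for the Mhc list and 0.925 to 0.979 for the zip list. Without the 2 libraries farthest from the median of Mhc or zip r was 0.963 to 0.986 for the Mhc list and 0.966 to 0.978 for the zip list.

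Genes for proteins that bind, organize or fold thick filament myosin mostly changed in the direction of Mhc. In a list of 7 such genes (Mf, bt, Unc-89, sls, Strn-Mlck, unc-45 and Mhcl), 6 were higher in Mef2>Deaf1RNAi than in Mef2>whiteRNAi, with a list median log2 fold change of 1.16, against 5.48% of all genes called higher. In Mef2>Deaf1, 4 of 7 were lower than in Mef2>+ (median −1.17, against 7.38% of all genes), and in Mef2>whiteRNAi 5 of 7 were lower than in Mef2>+ (median −1.04, against 10.2% of all genes). With the controls exchanged, 0 of 7 passed with edgeR in Mef2>Deaf1RNAi against Mef2>+ and 0 of 7 in Mef2>Deaf1 against Mef2>whiteRNAi. In each of these, 1 of 7 had an unadjusted p under 0.05, against 25.8% and 20.2% of all genes. DESeq2 called 0 and 1 of the 7. In the libraries labelled Mef2>Gsk3CA none of 7 passed with edgeR, DESeq2 or limma voom (median −0.30). There 1 had an unadjusted p under 0.05, against 34.8% of all genes. The medians over all genes were between −0.05 and −0.02 in these 4 comparisons.

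Unc-89, the fly obscurin of the M-line, had the largest change of the list. It stood at 928 to 1108 CPM in Mef2>Deaf1RNAi, against 80.1 to 272 CPM in Mef2>whiteRNAi (log2 fold change 2.65, SE 0.43, adjusted p = 0.00398, edgeR's quasi-likelihood test). In Mef2>Deaf1 it stood at 40.6 to 75.5 CPM, against 365 to 763 CPM in Mef2>+ (−3.09, SE 0.44, adjusted p = 0.00126), and between the controls it was lower in Mef2>whiteRNAi (−1.67, adjusted p = 0.0186). Its direction was that of Mhc in each of these comparisons and its change was larger in the first 2.

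The gene bt, which encodes the titin-family protein projectin, rose with Deaf1 RNAi (1.37, adjusted p = 0.0249, edgeR), as did sls (1.21, adjusted p = 0.0375), which encodes another such protein that links the Z-disc to the thick filament. In Mef2>Deaf1 Strn-Mlck fell by 1.33 (adjusted p = 0.00112) and Mf, the thick filament protein myofilin, fell by 1.26 (adjusted p = 0.00664). Between the controls bt and Mf fell in Mef2>whiteRNAi by 1.10 (adjusted p = 0.0394) and 1.07 (adjusted p = 0.0134). The thin filament list gave similar counts, with 6 of 11 genes higher in Mef2>Deaf1RNAi, 9 of 11 lower in Mef2>Deaf1 and 8 of 11 lower in Mef2>whiteRNAi against Mef2>+, where 5.48%, 7.38% and 10.2% of all genes were called in these directions. With the controls exchanged, 0 of 11 passed with edgeR in either Deaf1 comparison and DESeq2 called 1 and 2. In Mef2>Deaf1RNAi against Mef2>+ and in Mef2>Deaf1 against Mef2>whiteRNAi, 2 of 11 each had an unadjusted p under 0.05. The shares of all genes there were 25.8% and 20.2%. None of those 11 passed in the libraries labelled Mef2>Gsk3CA with edgeR, DESeq2 or limma voom. There 2 had an unadjusted p under 0.05, both lower, against 34.8% of all genes. The list medians were 0.99 with Deaf1 RNAi, −1.39 in Mef2>Deaf1, −0.59 in the libraries labelled Mef2>Gsk3CA and −1.12 in Mef2>whiteRNAi against Mef2>+.

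Regulators of non-muscle myosin changed in both directions. Of 13 tested, 3 were higher and 1 lower in Mef2>Deaf1RNAi against Mef2>whiteRNAi (5 and 1 with DESeq2), where 5.48% of all genes were called higher and 3.33% lower. Mbs, the targeting subunit of myosin phosphatase, rose (0.74, SE 0.11, adjusted p = 0.00218, edgeR), as did l(2)gl (0.64, adjusted p = 0.0303), a cell polarity gene. In Mef2>Deaf1 against Mef2>+, 1 of 13 was higher and 1 lower, and the lower one was sqa, a kinase gene (fell by 0.38, adjusted p = 0.0319), against 5.06% of all genes called higher and 7.38% lower. Between the controls 1 of 13 was higher and 1 lower in Mef2>whiteRNAi, where l(2)gl fell by 0.53 (adjusted p = 0.0404), against 6.3% of all genes called higher and 10.2% lower. In the libraries labelled Mef2>Gsk3CA none of 13 passed with edgeR or limma voom and 2 did with DESeq2. There 1 had an unadjusted p under 0.05, against 34.8% of all genes. For the difference of the Deaf1 effects 5 of 13 were higher and 1 lower, against 16.2% of all genes called. The list medians, in the order of the 4 comparisons above, were 0.32, 0.00, 0.08 and −0.01.

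Of 9 unconventional myosins tested, which carry cargo or anchor membranes rather than form filaments, only ck, the myosin VIIa gene, changed in Mef2>Deaf1 (fell by 0.29, adjusted p = 0.0459, edgeR, where 7.38% of all genes were called lower), and only Myo10A in the libraries labelled Mef2>Gsk3CA (fell by 0.55, adjusted p = 0.00556, where 8.87% of all genes were called lower). With limma voom ck did not pass. In Mef2>Deaf1RNAi against Mef2>whiteRNAi and in Mef2>whiteRNAi against Mef2>+ none of the 9 passed with edgeR, DESeq2 or limma voom, and 1 and 0 had an unadjusted p under 0.05, against 24.7% and 33.4% of all genes. Their medians lay between −0.29 (libraries labelled Mef2>Gsk3CA) and −0.04.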

How the data were processed

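The authors made TruSeq stranded mRNA libraries, mapped paired-end reads of 100 bases to the BDGP5 genome with STAR and counted reads per gene with HTSeq (CASAVA 1.7 for base calling, per the labels). Whether HTSeq used the strand is not given in the sources used here. The deposited values were whole-number counts per gene symbol for 15 libraries, 16186361 to 32756446 on genes each. The 5 HTSeq summary lines were left out, of which no feature took 3.36 to 6.75% and ambiguous reads 1.74 to 3.07%. Replicates are described by the study as biological, from separate larvae, and the labels do not tie a library to a larva or cross.

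Genes passing filterByExpr (10930) were fitted with edgeR's quasi-likelihood test (edgeR 4.0.16, limma 3.58.1, R 4.3.3) after TMM scaling, with 1 mean per genotype over all 15 libraries and Benjamini-Hochberg adjustment, and an adjusted p under 0.05 counted as changed. The fit was tested on simulated counts with 200 changed genes in each of the 4 comparisons of 2 genotypes. It found 44.9 to 55.6% of changes of log2 1 and 71.7 to 77% of those of log2 2, with 4 to 10 false calls. A change of log2 1 thus often failed to pass. Library values are CPM with TMM scaling, and lengths are all exon bases of the BDGP6 annotation, in which 11943 symbols matched by current and 3426 by older symbol. No gene coordinates are given because the files and the annotation use different builds. The members and lists were chosen with earlier results of these data known. All 8 members are named, with up to 3 called genes per list and comparison by size of change (except some genes that are counted in their lists and not reported here by name), and the 5 genes most correlated with Mhc and with zip (mean log2 CPM of at least 5). Ratios within libraries were compared with the two-sided exact permutation test. Alternatives were RLE factors, DESeq2 1.42.0, limma voom, other filters, scaling to total counts, only the libraries compared, exchanged controls, each library left out, and the replicate block. Same-numbered libraries deviated together only in Mef2>Deaf1 and Mef2>+ (correlations of deviations 0.304, 0.242 and 0.478, from the data and not the labels).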

Additional observations from a re-analysis of the deposited data

How the results depend on the processing

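Over 567 values of the 7 genes and 5 comparisons under the alternatives, 489 kept their direction and their side of the threshold, 35 lost the call, 4 gained it and 39 changed sign. Having 3 libraries per genotype and a wide spread among the Mef2>whiteRNAi and Mef2>+ libraries limits every comparison, and fln was too shallow to test (without a filter on low counts its log2 fold changes between genotypes were 0.31 to 0.72, adjusted p 0.686 to 0.862 over 14322 genes, and its difference of the Deaf1 effects was −0.14, adjusted p = 1).

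With each library left out in turn, genes changed numbered 294 to 1159 in Mef2>Deaf1RNAi against Mef2>whiteRNAi, 711 to 958 in Mef2>Deaf1 against Mef2>+, 445 to 2837 in the libraries labelled Mef2>Gsk3CA against Mef2>+, 818 to 2062 in Mef2>whiteRNAi against Mef2>+ and 1172 to 1857 for the difference of the Deaf1 effects. Of the 7 myosin genes, 0 to 4, 3 to 4, 0, 2 to 4 and 4 passed in the same order. The log2 fold change of Mlc-c then ran from −0.11 to 0.13 with Deaf1 RNAi, from −0.24 to 0.054 in the libraries labelled Mef2>Gsk3CA and from −0.026 to 0.27 between the controls, and in the libraries labelled Mef2>Gsk3CA sqh ran from −0.36 to 0.19 and zip from −0.33 to 0.076. No muscle to non-muscle ratio changed direction when a library was left out.

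In the libraries labelled Mef2>Gsk3CA against Mef2>+, where 1536 genes passed (567 higher, 969 lower), RLE factors gave 759 higher and 543 lower and DESeq2 1232 higher and 818 lower, at least 10 counts in every library gave 1003 genes (532 higher, 471 lower), and only the libraries compared gave 85. There sqh was at 0.051 with RLE factors and with DESeq2, 0.053 with the 10-count filter and 0.038 with only the libraries compared, and Mlc-c was at 0.029, 0.029, 0.031 and 0.016. Scaling to total counts moved the median of all genes by −0.20, 0.17, 0.25 and 0.16 in the 4 comparisons and by −0.36 for the difference, and gave 0.14, 0.19 and 0.18 for zip, sqh and Mlc-c in the libraries labelled Mef2>Gsk3CA and −0.17 for Mlc-c with Deaf1 RNAi. It split the calls into 274 higher and 1591 lower with Deaf1 RNAi (599 and 364 with TMM), 1814 and 497 in Mef2>Deaf1 against Mef2>+ (553 and 807), 1981 and 260 in the libraries labelled Mef2>Gsk3CA, 2043 and 555 between the controls (689 and 1110) and 606 and 3318 for the difference (1030 and 741). DESeq2 called 1661 genes with Deaf1 RNAi, against 963. With only the libraries compared, 0 of 7 genes passed with Deaf1 RNAi and 0 between the controls, where 665 of all genes passed. The cause of the lost calls was not tested, since that fit had fewer samples and set the filter, scaling factors and spread anew.

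With the controls exchanged, Mef2>Deaf1RNAi against Mef2>+ gave −0.093 for Mlc1, −0.49 for Mlc2, −0.72 for Prm, 0.32 for zip and 0.18 for sqh, with 0 of 7 called. Mef2>Deaf1 against Mef2>whiteRNAi gave 0.15 for Prm and −0.021 for zip, with 0 of 7 and 717 of all genes called. The libraries labelled Mef2>Gsk3CA against Mef2>whiteRNAi gave 1.10 for Mhc, 0.81 for Mlc1, 0.50 for Mlc2 and 0.72 for Prm, with 1 of 7 and 3502 of all genes called. The difference of the Deaf1 effects became −0.87 for Prm, 0.34 for zip and 0.022 for sqh, with 0 of 7 called.

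With the block on replicate numbers, 599 genes and 1 of 7 myosin genes passed with Deaf1 RNAi (Mlc1 at adjusted p = 0.0532), 966 genes passed in the libraries labelled Mef2>Gsk3CA, and Mlc2 missed between the controls (adjusted p = 0.0545). Correlations of same-numbered deviations were −0.23 to −0.01, −0.78 to −0.56 and −0.03 to 0.22 in these comparisons, so the numbers do not pair those libraries. In Mef2>Deaf1 against Mef2>+, where every one was over 0.1, the block changed no call of the 7 genes.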
